A study of Mus musculus with 15 samples.

Results

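The genes described here are 10 chemokines of the mouse CXC and CX3C families, Cxcl1, Cxcl2, Cxcl3, Cxcl9, Cxcl10, Cxcl12, Cxcl13, Cxcl14, Cxcl16 and Cx3cl1. They were found by matching these symbols to the Ensembl identifiers of a matrix of raw gene counts, and are 10 of its 53465 genes. The matrix comes from RNA sequencing of bone marrow-derived macrophages (BMDMs), grown from mouse marrow with M-CSF, a growth factor for macrophages. Cells were left without added cytokine (control) or were treated for 24 h with IL-4 at 10 ng/ml, with IL-4 at 10 ng/ml and IL-6 at 40 ng/ml (IL-4+IL-6), with IL-13 at 40 ng/ml, or with IL-13 and IL-6 both at 40 ng/ml (IL-6+IL-13). Each of the 5 groups had 3 libraries, with total counts between 17001352 and 18918686. No group received IL-6 alone, and the labels do not give the genotype, age or number of the mice, so p-values measure the spread between these cultures.

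Chemokines are small secreted proteins that guide migrating leukocytes through receptors on the cell surface. The CXC and CX3C families are named for the spacing of a first pair of cysteines in the protein. Cxcl1, Cxcl2 and Cxcl3 act on CXCR2 of neutrophils, Cxcl9 and Cxcl10 are interferon-induced ligands of CXCR3 on T cells, Cxcl12 acts on CXCR4, and Cxcl13 acts on CXCR5 of B cells. Cxcl16, the ligand of CXCR6, and Cx3cl1 (fractalkine), the ligand of CX3CR1, are made as membrane proteins on a mucin-like stalk and are released by proteases of the ADAM family. Cxcl14 is a chemokine of epithelia and other tissues whose signalling receptor is debated. Macrophages are known sources of several of these ligands, and the inflammatory ones are classically tied to NF-kB and to interferons.

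The coding sequence around the defining cysteines shows which family each gene belongs to. The stretches below were read from a coding transcript of each gene in GENCODE M21, 5′ to 3′ on the coding strand, and run from 3 codons before the first cysteine to 2 codons after the second, with the codons of these cysteines in capitals.
Cxcl1: gagctgcgcTGTcagTGCctgcag
Cxcl2: gaactgcgcTGTcaaTGCctgaag
Cxcl3: gagctgcgcTGTcagTGCctgaac
Cxcl9: aatgcacgaTGCtccTGCatcagc
Cxcl10: acggtccgcTGCaacTGCatccat
Cxcl12: agctaccgaTGCcccTGCcggttc
Cxcl13: aacttaaaaTGTaggTGTtctgga
Cxcl14: gggtccaagTGTaagTGTtcccgg
Cxcl16: gctggaagtTGTtctTGTgatcgt
Cx3cl1: atgacgaaaTGCgaaatcatgTGCgacaag
Cx3cl1 has 3 codons between the capitals where the others have 1. The codons for glutamate, leucine and arginine (ELR), which mark the CXC ligands of neutrophil receptors, stand directly before the first capitals in Cxcl1, Cxcl2 and Cxcl3 and in none of the other members. The coding sequences of Cxcl2 and Cxcl3 shared 89.7% of 300 aligned bases, those of Cxcl1 and Cxcl2 78.8% of 288, and those of Cxcl1 and Cxcl3 75.7% of 288. How reads that match more than 1 of these 3 genes were counted is not given in the sources used here, so low counts among them are uncertain.

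On GRCm38, 6 of the 10 genes lie on chromosome 5. Cxcl3 (chr5:90786103-90789600), Cxcl1 (chr5:90891241-90893115) and Cxcl2 (chr5:90903871-90905938) lie on the plus strand, as does Cxcl13 (chr5:95956951-95961068), and Cxcl9 (chr5:92321347-92328079) and Cxcl10 (chr5:92346638-92348889) lie on the minus strand. The other genes are Cxcl12 (chr6:117168535-117181367, plus), Cx3cl1 (chr8:94772009-94782427, plus), Cxcl16 (chr11:70453983-70459984, minus) and Cxcl14 (chr13:56288643-56296551, minus). In the GENCODE M21 annotation, Cxcl10 lies wholly inside Art3 on the opposite strand, and Cxcl16 overlaps Zmynd15 on the opposite strand over 552 bases. The sources used here do not say whether the libraries keep strand. Art3 had at most 1 count in any library, and Zmynd15 had 217 to 232 counts in control and 5 to 54 in the treated libraries, against 150 to 1668 for Cxcl16.

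RefSeq start sites gave promoter windows of 300 bases (250 before the start and 50 after it, GRCm38.p6) for 9 of the 10 members, all but Cxcl16. Each window was searched on both strands for TTCNNNNGAA and TTCNNNGAA, the spaced palindromes bound by STAT6 and other STAT factors, for GAAANNGAAA, the core of interferon-stimulated response elements, and for the consensus of NF-kB. Over all 32851 windows, 6.95%, 8.3%, 3.44% and 4.51% held at least 1 match to these patterns, in that order. Windows of 3 members that passed the filter and held a match are shown as examples, 5′ to 3′ on the strand of the gene, with matches in capitals.
Cxcl14 promoter: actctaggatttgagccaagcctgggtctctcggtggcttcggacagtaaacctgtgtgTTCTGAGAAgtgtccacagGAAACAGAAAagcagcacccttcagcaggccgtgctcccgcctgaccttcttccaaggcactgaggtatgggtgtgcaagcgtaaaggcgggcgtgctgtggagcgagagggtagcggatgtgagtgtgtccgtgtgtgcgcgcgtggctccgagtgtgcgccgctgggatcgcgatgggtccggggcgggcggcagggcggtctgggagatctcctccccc
Cxcl10 promoter: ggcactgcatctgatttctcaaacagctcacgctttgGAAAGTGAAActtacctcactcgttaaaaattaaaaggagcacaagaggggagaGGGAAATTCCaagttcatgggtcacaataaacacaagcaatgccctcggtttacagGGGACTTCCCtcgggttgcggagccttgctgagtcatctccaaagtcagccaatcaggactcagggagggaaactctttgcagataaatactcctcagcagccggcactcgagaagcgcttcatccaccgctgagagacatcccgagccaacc
Cxcl2 promoter: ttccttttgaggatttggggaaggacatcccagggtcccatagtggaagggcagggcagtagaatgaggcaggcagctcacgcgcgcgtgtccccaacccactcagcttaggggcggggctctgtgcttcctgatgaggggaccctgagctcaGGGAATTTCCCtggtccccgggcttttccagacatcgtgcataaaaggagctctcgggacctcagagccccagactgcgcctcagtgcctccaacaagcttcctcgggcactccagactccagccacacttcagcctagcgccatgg
The Cxcl14 window (chr13:56296502-56296801, minus strand) held TTCNNNGAA at bases -191 to -183 from the start and GAAANNGAAA at -172 to -163. The Cxcl10 window (chr5:92348840-92349139, minus strand) held GAAANNGAAA at -213 to -204 and the NF-kB consensus at -159 to -150 and at -103 to -94. The Cxcl2 window (chr5:90903649-90903948, plus strand) held 2 NF-kB matches that overlap in the palindrome GGGAATTTCCC, from -97 to -87, and the windows of Cxcl1 and Cxcl3 held the same palindrome. No window of a member held TTCNNNNGAA, and those of Cxcl9, Cxcl12, Cxcl13 and Cx3cl1 held none of the patterns. These matches describe the letters only.

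Levels of different genes were compared as FPKM, which divides by gene length. In control, Cxcl16 was the highest member with 30.5 ± 2.03 FPKM (SD, n = 3), followed by Cxcl14 with 18.6 ± 1.84 FPKM, and these 2 genes had no overlap between their libraries. Cxcl2 (1.42 ± 0.546 FPKM) and Cxcl10 (0.964 ± 0.204 FPKM) came next, with overlapping libraries. The other 6 members had mean levels of at most 0.181 FPKM in control. The order of the leading genes differed between groups. Cxcl14 stood above Cxcl16 with IL-4 (29.3 ± 0.784 against 4.90 ± 0.118 FPKM), with IL-13 (35.3 ± 3.95 against 9.79 ± 1.59 FPKM) and with IL-4+IL-6 (8.07 ± 0.914 against 3.26 ± 0.398 FPKM), with every library of Cxcl14 above every library of Cxcl16. In IL-6+IL-13 the libraries of Cxcl14 (8.88 to 13.7 FPKM) and Cxcl16 (8.74 to 13.0 FPKM) overlapped. Summed over the 10 members, normalized CPM (counts scaled to a common library total with TMM factors) were between 116 and 133 in control, 87.8 and 113 in IL-13, 68.2 and 75.2 in IL-4, 46.9 and 72.3 in IL-6+IL-13, and 25.9 and 31.4 in IL-4+IL-6.

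Of the 10 members, 6 passed the filter on low counts and could be tested, Cxcl2, Cxcl3, Cxcl10, Cxcl14, Cxcl16 and Cx3cl1. Groups were compared with edgeR's quasi-likelihood test in 1 fit of all 15 libraries, with Benjamini-Hochberg adjustment over 13938 genes, and a gene was called higher or lower at an adjusted p under 0.05. All values below are normalized CPM unless another scale is named, and fold changes are log2 ± standard error. Fits with no filter on low counts gave far smaller adjusted p-values for some members at nearly the same fold change. Calls from those fits do not replace the main test.

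**Figure D1:**
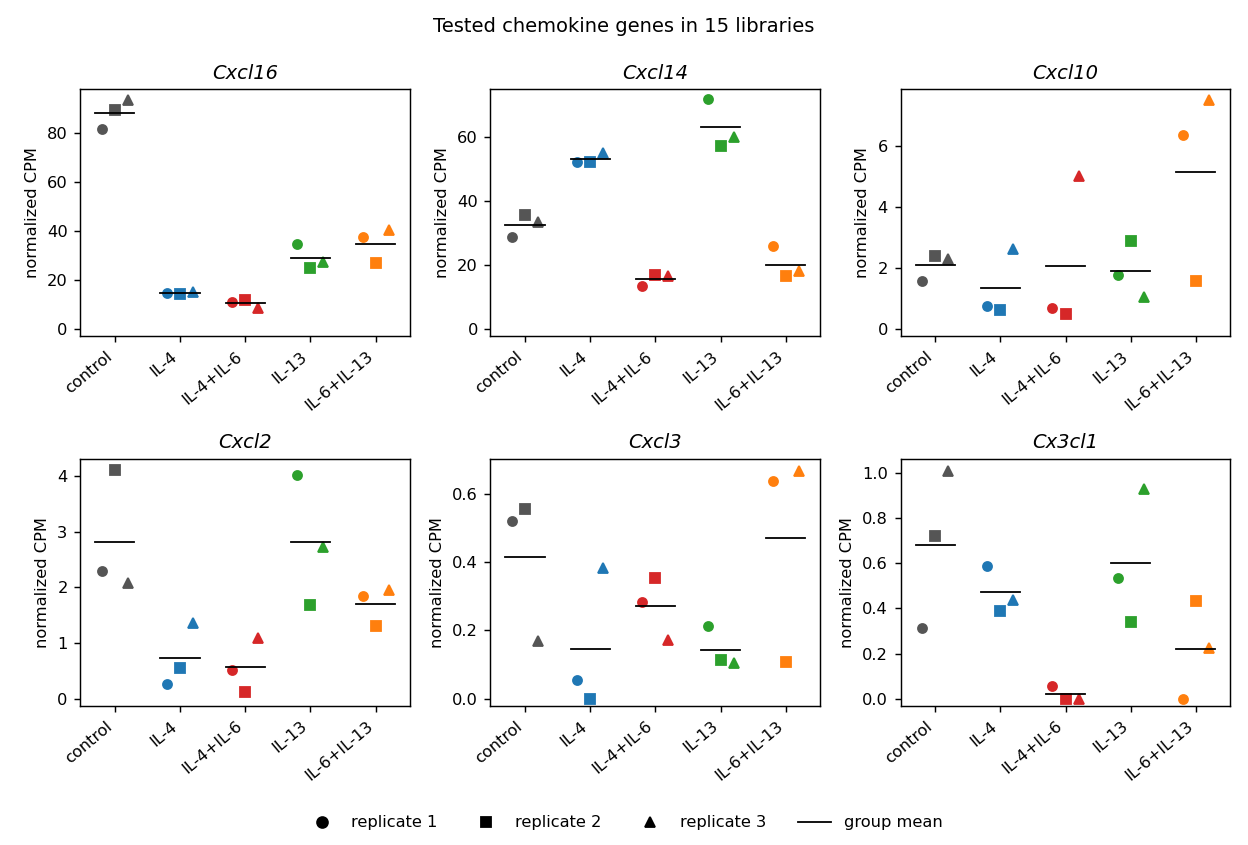
Normalized CPM (linear axes from 0, a separate scale for each gene) of the 6 tested members in each library, by group. Symbols mark the replicate number and lines the group means. Cxcl16 was highest in the 3 control libraries (81.8 to 93.6), and Cxcl14 was lower in every library with IL-6 (13.4 to 25.8) than in every library with IL-4 or IL-13 alone (52.0 to 71.9).

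Before the members were compared, the labels were checked. Retnla, a gene induced by IL-4 and IL-13, had 0 counts in every control library and group means between 23.1 and 729 CPM in the treated groups. Socs3, a target of STAT3, had 129 ± 12.5 CPM in IL-4+IL-6 and 107 ± 2.35 in IL-6+IL-13 against at most 8.73 in the other group means. The macrophage markers Adgre1 and Csf1r were high in all groups, with group means between 844 and 1454 for Adgre1 and 1581 and 2195 for Csf1r. The control libraries also held RNA of other marrow cells. Summed CPM in control and in the treated libraries were 463 to 551 and 0.979 to 2.14 for 9 granulocyte markers, 160 to 179 and 1.89 to 4.79 for 6 megakaryocyte markers, 17.2 to 21.8 and 0.0542 to 0.691 for 9 stromal markers, and 11.3 to 12.5 and 0.567 to 1.69 for 6 B cell markers. The same ranges were 20.5 to 22.9 and 0.169 to 1.04 for 5 dendritic cell markers, 11.3 to 13.9 and 0 to 0.236 for 4 basophil and mast cell markers, 206 to 220 and 72.0 to 131 for 5 endothelial markers, 0.365 to 0.841 and 0 to 0.750 for 5 T and NK cell markers, and 18935 to 21114 and 10900 to 19800 for 8 macrophage markers. The granulocyte gene S100a9 had 156 ± 15.2 CPM in control and a group mean of at most 0.0902 in the treated groups, and the stromal gene Col1a1 had 9.05 ± 1.19 CPM in control and 0 counts in all treated libraries. Apart from the T and NK cell and the macrophage markers, these sums were higher in every control library than in every treated library, and their part in the results over control was not tested. The 3 tested endothelial genes did not move together. Of them, 2 were called higher and 1 lower than control in IL-6+IL-13, and 1 higher and 1 lower in IL-13. In IL-4, 0 were higher and 2 lower, and in IL-4+IL-6, 0 were higher and 1 lower. The mean chi-square per gene between replicates was 2.68 to 7.95 except for pairs with IL-4+IL-6 replicate 2 (26.3 and 46.6) and with IL-13 replicate 1 (17.1 and 22.3), so these libraries stood apart from their groups. IL-13 replicate 1 was the highest of its group in Cxcl14, in Cxcl16 and in the summed macrophage markers (19800 against 17051 and 17142 CPM). The 4 comparisons over control share the same control libraries. In bulk RNA, fewer cells of a type and less RNA per cell cannot be told apart.

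Cxcl16 was the member with the widest range among the well-measured ones, and it fell in all 4 treated groups. The control libraries had 81.8, 89.6 and 93.6 CPM. With IL-4 the libraries had 14.6, 14.2 and 15.1, and with IL-4+IL-6 10.9, 11.8 and 8.64. With IL-13 they had 34.5, 24.8 and 27.3, and with IL-6+IL-13 37.4, 26.7 and 40.3. Every control library lay above every treated library, and every library with IL-4 lay below every library with IL-13. Over control, Cxcl16 fell by 2.59 ± 0.148 with IL-4 (adjusted p = 1.02e-10), by 1.61 ± 0.140 with IL-13 (3.14e-08), by 3.08 ± 0.154 with IL-4+IL-6 (1.07e-11) and by 1.34 ± 0.138 with IL-6+IL-13 (2.10e-07). Between treated groups, it was lower in IL-4 than in IL-13 by 1.97-fold (log2 -0.98 ± 0.149, adjusted p = 2.04e-04), where the doses of the 2 cytokines differ, and 3.33-fold lower with IL-4+IL-6 than with IL-6+IL-13 (log2 -1.73 ± 0.155, adjusted p = 1.69e-07). Zmynd15 counts, given above, also stood highest in control.

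Addition of IL-6 moved Cxcl16 in a way that depended on its partner cytokine in the test of all 15 libraries. It fell by 0.49 ± 0.162 in IL-4+IL-6 against IL-4 (adjusted p = 0.0241). In IL-6+IL-13 against IL-13 it had a log2 fold change of 0.27 ± 0.142 (adjusted p = 0.195), and the libraries of these groups overlapped. That comparison passed the test without IL-13 replicate 1 (log2 0.41, adjusted p = 0.0422) or IL-6+IL-13 replicate 2 (log2 0.42, 0.0268), and with no filter on low counts (log2 0.28, 0.0487). The difference between these effects was -0.75 ± 0.215 (adjusted p = 0.0402), in a test that called 4.42% of all genes lower and 3.22% higher. The call is close to the threshold. Without IL-4+IL-6 replicate 2 the difference was -0.85 (adjusted p = 0.0177) and without IL-13 replicate 1 it was -0.92 (7.80e-03). The call was lost in the fit of the 12 libraries without control, with an adjusted p of 0.0698 and the same size of difference (log2 -0.76). It was also lost in a fit with the replicate number as a block (0.0532). Of the 15 fits that left out 1 library, 11 lost it, with the highest adjusted p (0.102) without IL-6+IL-13 replicate 3. The call of IL-4+IL-6 against IL-4 was lost without IL-4+IL-6 replicate 3 (adjusted p = 0.0866) and without IL-4 replicate 3 (0.0526).

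Cxcl14 rose with IL-4 and with IL-13 and fell when IL-6 was added to either. The libraries had 28.7, 35.5 and 33.3 CPM in control, 52.1, 52.0 and 54.9 in IL-4, and 71.9, 57.2 and 60.0 in IL-13. With IL-6 they had 13.4, 17.0 and 16.5 in IL-4+IL-6 and 25.8, 16.4 and 18.0 in IL-6+IL-13. The libraries thus fell into 3 separate ranges, with those of IL-4 and IL-13 above control and those with IL-6 below it, although IL-6+IL-13 replicate 1 stood nearest to control. Cxcl14 was 1.63-fold higher in IL-4 (log2 0.71 ± 0.137, adjusted p = 2.16e-04) and 1.94-fold higher in IL-13 (log2 0.96 ± 0.136, adjusted p = 1.16e-05) than in control. IL-6 lowered it 3.39-fold beside IL-4 (log2 -1.76 ± 0.145, adjusted p = 2.59e-08) and 3.15-fold beside IL-13 (log2 -1.65 ± 0.141, adjusted p = 8.39e-08). Without IL-4+IL-6 replicate 2 the former was -1.84 and without IL-13 replicate 1 the latter was -1.56, and both still passed the test. The difference between these effects of IL-6 was -0.11 ± 0.200, with an interval of 2 standard errors from -0.51 to 0.29 (adjusted p = 0.86). Below control, Cxcl14 fell by 1.06 ± 0.146 in IL-4+IL-6 (adjusted p = 5.33e-06) and by 0.70 ± 0.143 in IL-6+IL-13 (4.10e-04). IL-4 and IL-13 were neighbours that did not pass the test, with a log2 difference of -0.25 ± 0.133 (adjusted p = 0.239) although their libraries did not overlap, and the same held for IL-4+IL-6 and IL-6+IL-13, with -0.36 ± 0.150 (adjusted p = 0.0799) and overlapping libraries. Without IL-6+IL-13 replicate 2 the latter was -0.49 (adjusted p = 0.0286), and with no filter on low counts it was -0.38 (0.00471). Within the comparisons of IL-6, which hold no control library, summed granulocyte markers were between 0.979 and 2.14 CPM over all 12 treated libraries, and summed macrophage markers were 10900 to 12704 CPM in IL-4+IL-6 against 14309 to 14780 in IL-4, and 13928 to 14820 in IL-6+IL-13 against 17051 to 19800 in IL-13. Their part in the fall of Cxcl14 was not tested.

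**Figure D2:**
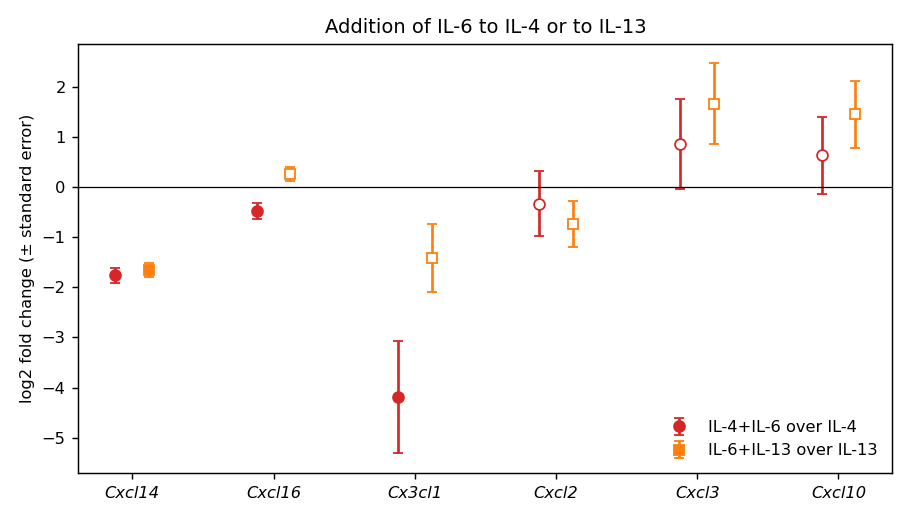
Log2 fold changes (± standard error) of the 6 tested members on addition of IL-6 to IL-4 (circles) or to IL-13 (squares), and filled symbols mark calls. Cxcl14 fell by a similar amount in both settings (-1.76 and -1.65), while Cxcl16 fell only beside IL-4 in these tests.

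Cx3cl1 was expressed at a low level and was almost lost where IL-6 was combined with IL-4. Its counts were 6, 13 and 18 in control, 11, 7 and 8 in IL-4, and 10, 6 and 18 in IL-13. They were 1, 0 and 0 in IL-4+IL-6 and 0, 8 and 4 in IL-6+IL-13. All libraries of IL-4+IL-6 lay below all libraries of control, IL-4 and IL-13, and overlapped those of IL-6+IL-13. Cx3cl1 fell in IL-4+IL-6 against IL-4 (adjusted p = 6.14e-03) and against control (adjusted p = 6.77e-04). Because IL-4+IL-6 held 1 count, ratios were taken from summed counts. IL-4 stood 24.5-fold above IL-4+IL-6 with an exact 95% counting interval from 4.03 to 1010, and control 34.9-fold above it with an interval from 5.89 to 1420. These intervals cover counting error only. IL-4+IL-6 was at the limit of detection for Cx3cl1 (at most 3 counts in every library). Set against that limit, the fall was at least 2.72-fold from IL-4 and 3.93-fold from control. In IL-6+IL-13, Cx3cl1 was lower than in control by 1.57 ± 0.667 (adjusted p = 0.0485) with overlapping libraries, a call that ended without either of control replicates 2 and 3 (adjusted p = 0.0973 and 0.195) or without IL-6+IL-13 replicate 1 (0.176) or 3 (0.106). It also ended without any 1 library of IL-4, without IL-4+IL-6 replicate 1 and without IL-13 replicate 1 (adjusted p between 0.0576 and 0.0636). A fit with the replicate number as a block ended this call of Cx3cl1 as well (0.0592). Against IL-13 its log2 fold change was -1.42 ± 0.676 (adjusted p = 0.147), and the effects of IL-6 beside IL-4 and IL-13 differed by -2.78 ± 1.45 (adjusted p = 0.34). The summed counts were 11.6-fold higher in IL-6+IL-13 than in IL-4+IL-6 (counting interval 1.72 to 496), a comparison with an adjusted p of 0.0771 that passed without IL-6+IL-13 replicate 1 (0.0211), with DESeq2 (0.0411) and with no filter on low counts (0.0331).

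Cxcl2, a neutrophil attractant made on inflammatory activation, was lower with IL-4 but not with IL-13 in these tests. The libraries had 2.29, 4.10 and 2.08 CPM in control and 4.02, 1.69 and 2.73 in IL-13. They had 0.268, 0.554 and 1.36 with IL-4, 0.510, 0.118 and 1.09 with IL-4+IL-6, and 1.85, 1.30 and 1.95 in IL-6+IL-13. IL-4 and IL-4+IL-6 lay wholly below control and IL-13, with replicate 3 the highest library in each. IL-6+IL-13 also lay wholly below control, with a log2 fold change of -0.73 ± 0.459 (adjusted p = 0.173) that passed in a fit of only these groups (0.0301). Cxcl2 fell by 1.95 ± 0.517 in IL-4 against control (adjusted p = 3.13e-03) and by 2.28 ± 0.543 in IL-4+IL-6 against control (1.22e-03). IL-13 had a log2 fold change of 0.00 ± 0.437 over control, with an interval of 2 standard errors from -0.87 to 0.87. The direct comparison of IL-4 with IL-13, where the doses of the 2 cytokines differ, gave -1.95 ± 0.516 (adjusted p = 0.0184). This call ended without IL-4 replicate 1 or 2 (adjusted p = 0.0937 and 0.0858) or IL-13 replicate 1 or 3 (0.0511 and 0.0506). Addition of IL-6 gave log2 fold changes of -0.33 ± 0.652 beside IL-4 and -0.73 ± 0.458 beside IL-13, neither of which passed the test. IL-4+IL-6 against IL-6+IL-13 gave -1.55 ± 0.576 with an adjusted p of 0.0506, just outside the threshold, although their libraries did not overlap. It passed in 6 of the 15 fits that left out 1 library, with the lowest adjusted p (0.0102) without IL-4+IL-6 replicate 3. It also passed with DESeq2 (adjusted p = 0.0202), with upper-quartile factors (0.0494), with a minimum count of 30 (0.0473) and with no filter on low counts (0.00012).

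Cxcl10 varied widely between replicates. The libraries had 1.56, 2.38 and 2.30 CPM in control, 0.749, 0.609 and 2.62 with IL-4, 0.680, 0.471 and 5.01 with IL-4+IL-6, 1.77, 2.87 and 1.03 in IL-13, and 6.36, 1.57 and 7.51 in IL-6+IL-13. Replicate 3 was far above the others in IL-4+IL-6 and replicate 2 far below the others in IL-6+IL-13. No comparison of Cxcl10 passed the test with all 15 libraries and the filter on low counts. In IL-6+IL-13 against IL-13 the log2 fold change was 1.45 ± 0.670 (adjusted p = 0.134), and it was 1.88 with an adjusted p of 0.0461 without IL-6+IL-13 replicate 2, and the adjusted p was 0.0368 without IL-4+IL-6 replicate 3. Over control it was 1.30 ± 0.662 in IL-6+IL-13 (adjusted p = 0.0944), and the adjusted p was 0.0254 without IL-6+IL-13 replicate 2 and 0.0250 and 0.0452 without IL-4+IL-6 replicates 3 and 2. The latter comparison also passed in a fit of only these groups (log2 1.30, adjusted p = 0.00552). With no filter on low counts, IL-6+IL-13 passed over control (adjusted p = 5.96e-08) and over IL-13 (3.88e-08), and IL-4+IL-6 against IL-6+IL-13 passed as well (7.09e-07). In IL-4+IL-6 against IL-6+IL-13 it was -1.32 ± 0.668 (adjusted p = 0.148), and -3.15 with an adjusted p of 2.03e-03 without IL-4+IL-6 replicate 3. Over control it was -0.01 ± 0.729 in IL-4+IL-6 (adjusted p = 0.988), and -1.84 with an adjusted p of 0.0388 without that replicate.

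The gene whose levels were most like those of Cxcl10 over the 15 libraries was Ccl5, another chemokine gene, with r = 0.93 (Pearson's correlation of log2 CPM across 13938 genes). Rsad2, an interferon-induced antiviral gene, had r = 0.78, and Il1b, the gene of interleukin-1 beta, had r = 0.77. The libraries share their group and depth, so these values are a description. In IL-4+IL-6 replicate 3, Ccl5 had 3.17 CPM against 1.08 and 0.707 in the other libraries, Rsad2 had 14.1 against 5.33 and 4.66, and Il1b had 1.61 against 0.227 and 0.177. These genes were chosen for their likeness to Cxcl10 over the same libraries, so their level in this library restates that choice.

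**Figure D3:**
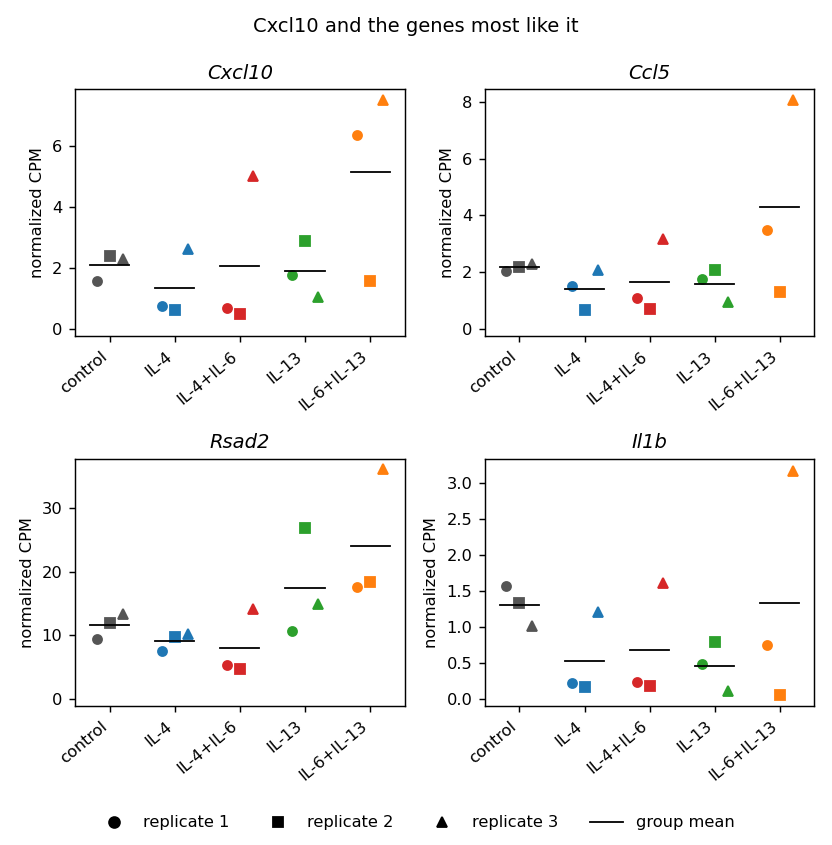
Normalized CPM (linear axes from 0) of Cxcl10 and of the 3 genes most like it, by library and group, with symbols for the replicate number and lines for group means. Replicate 3 was the highest library of IL-4+IL-6 in all 4 genes, with 5.01 for Cxcl10 and 3.17 for Ccl5.

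Among the other likeness lists, Cxcl14 was nearest to Pclaf and Tk1, genes of DNA replication and thymidine salvage, and to Gm17749 (r = 0.97 each). Pclaf had 75.3 to 77.4 CPM in IL-4 and 18.6 to 22.3 in IL-4+IL-6, and 80.7 to 85.6 in IL-13 and 29.3 to 37.8 in IL-6+IL-13. Tk1 had 48.0 to 62.1 CPM in IL-4 and 12.9 to 15.3 in IL-4+IL-6. These genes were chosen for their likeness to Cxcl14 over the same libraries, so a shared fall with IL-6 restates that choice. Cxcl16 was nearest to Acp2 and Pirb (r = 0.98 each) and Limd2 (r = 0.97), and Cxcl2 to Magee1 (r = 0.88), Traf1 and Gm37570 (r = 0.86 each). Only 1 of these 12 genes, Ccl5, stayed among the nearest 3 when ranks were used in place of log2 values.

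Cxcl3, the close relative of Cxcl2, stayed at 12 counts or fewer in every library. Its counts were 10, 10 and 3 in control, 1, 0 and 7 with IL-4, 5, 6 and 3 with IL-4+IL-6, 4, 2 and 2 in IL-13, and 11, 2 and 12 in IL-6+IL-13. No comparison passed the test. The widest log2 fold change was 1.66 ± 0.806 in IL-6+IL-13 against IL-13 (adjusted p = 0.155). Without IL-4 replicate 3, Cxcl3 was lower in IL-4 than in control (adjusted p = 0.0117).

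The other 4 members did not pass the filter. Cxcl1 counts were 6, 2 and 2 in control, 1, 2 and 4 with IL-4, 0, 1 and 1 with IL-4+IL-6, 9, 10 and 3 in IL-13, and 4, 2 and 4 in IL-6+IL-13. IL-13 thus held the most counts and IL-4+IL-6 the fewest. With no filter on low counts, no comparison of Cxcl1 passed the test (lowest adjusted p = 0.176, IL-4+IL-6 against control). Cxcl9 had 3, 3 and 2 counts in control, 3 counts in all in the 12 treated libraries, and 0 in every library of IL-4 and IL-4+IL-6, and all its groups were at the limit of detection (at most 3 counts in every library). Cxcl12 had 14, 2 and 4 counts in control, 2, 5 and 4 with IL-4, 0, 2 and 0 with IL-4+IL-6, 0, 2 and 4 in IL-13, and 0, 1 and 0 in IL-6+IL-13. Its control value rests largely on replicate 1, and the ratio of summed counts was 9.43 (exact 95% counting interval 2.29 to 83.2) for control over IL-4+IL-6 and 19.5 (3.12 to 808) for control over IL-6+IL-13. Without control replicate 1, a choice made after its counts were seen, these ratios were 4.34 (0.777 to 44.0) and 8.98 (1.09 to 413). With no filter on low counts, Cxcl12 was lower than control in IL-4+IL-6 (adjusted p = 0.026) and in IL-6+IL-13 (0.00916). Stromal cells are among the main sources of Cxcl12 in marrow. Summed stromal markers were 17.4, 17.2 and 21.8 CPM in control replicates 1, 2 and 3, and their part in the Cxcl12 counts was not tested. Cxcl13 had 0 counts in all 15 libraries, which allows up to 3 counts in each, or 0.155 to 0.177 CPM.

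**Figure D4:**
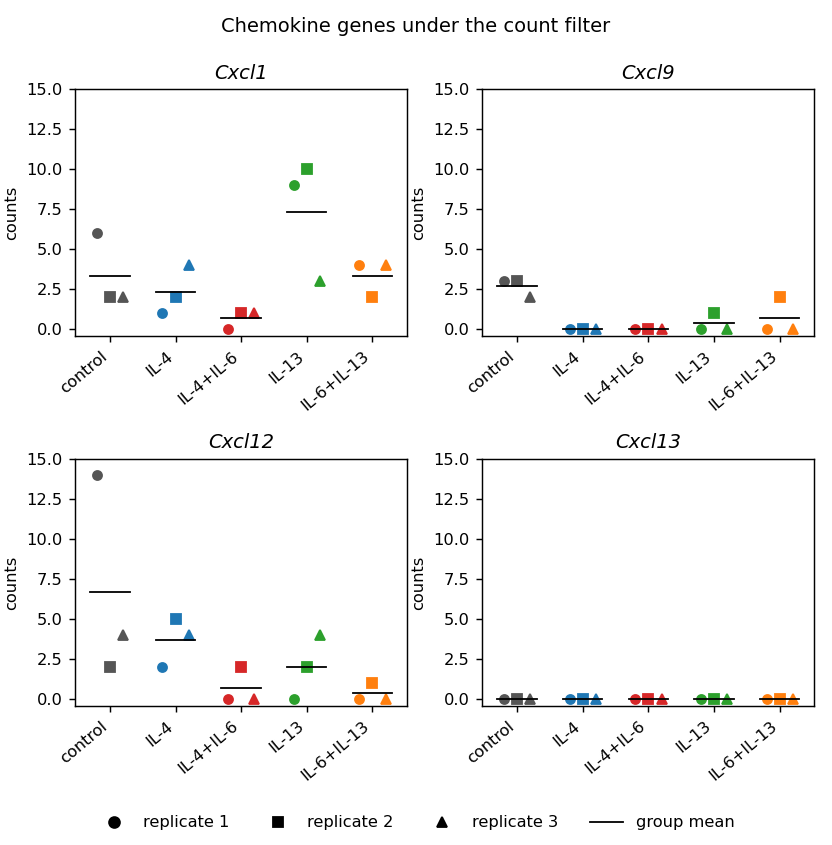
Raw counts (linear axes from 0) in each library of the 4 members under the filter, by group, with symbols for the replicate number and lines for group means. No value exceeds 14 counts, the Cxcl12 count of control replicate 1, and Cxcl13 is at 0 throughout.

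The calls of members stood beside those of all genes as follows. Of the 6 tested members, Cxcl14 was higher and 2 were lower in IL-4 against control, where 32.1% and 35.9% of all tested genes were called higher and lower. In IL-13 against control, 1 member was higher and 1 lower, with 29.0% and 31.1% of all genes. In IL-4+IL-6 against control, 0 were higher and 4 lower, with 35.4% and 37.5%, and in IL-6+IL-13 against control 0 were higher and 3 lower, with 31.9% and 32.1%. Addition of IL-6 to IL-4 called 0 members higher and 3 lower, with 20.7% and 18.7% of all genes, and its addition to IL-13 called 0 higher and 1 lower, with 12.1% and 13.5%. In IL-4 against IL-13, 0 were higher and 2 lower, with 5.16% and 7.61%, and in IL-4+IL-6 against IL-6+IL-13 0 were higher and 1 lower, with 15.8% and 15.5%. The median log2 fold change of the 6 members on addition of IL-6 was -0.41 beside IL-4 and -0.23 beside IL-13, against 0.04 and 0.01 over all genes. With so few members these shares describe the genes named and no more.

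Of 7 further CXC and XC ligand genes, 3 were tested, and 2 of them, Pf4 and Ppbp, rose in both comparisons of IL-6, where 20.7% of all genes were called higher beside IL-4 and 12.1% beside IL-13. Pf4 (CXCL4, a platelet chemokine also made by macrophages) had 66.2 to 71.4 CPM in IL-4 and 170 to 309 in IL-4+IL-6, and 69.6 to 86.3 in IL-13 and 343 to 415 in IL-6+IL-13. It rose by 1.77 ± 0.158 beside IL-4 (adjusted p = 6.99e-08) and by 2.37 ± 0.160 beside IL-13 (4.15e-09). Summed megakaryocyte markers were 2.38 to 3.98 CPM in IL-4 and 2.15 to 2.76 in IL-4+IL-6, and 2.52 to 4.79 in IL-13 and 1.89 to 3.12 in IL-6+IL-13. Ppbp, another platelet chemokine, rose from 1.59 ± 0.695 to 2.80 ± 0.721 CPM beside IL-4 (log2 0.80 ± 0.268, adjusted p = 0.0241, libraries overlapping) and from 1.87 ± 0.596 to 4.16 ± 0.318 CPM beside IL-13 (log2 1.15 ± 0.241, adjusted p = 1.49e-03). In control it had 166 ± 9.86 CPM, where megakaryocyte markers were also high, and their part was not tested. Cxcl5, an ELR ligand, had 2.80 ± 0.194 CPM in control and a mean of at most 0.357 in the treated groups. Cxcl11 had at most 2 counts in any library, and Cxcl15, Cxcl17 and Xcl1 had 0 counts in all of them.

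Of 9 receptor genes, 5 passed the filter, and these were called lower than control in each of the 4 treated groups. The granulocyte, megakaryocyte, stromal and B cell sums above were also lower in the treated libraries, and their part was not tested. Of all genes, 35.9% were lower in IL-4, 31.1% in IL-13, 37.5% in IL-4+IL-6 and 32.1% in IL-6+IL-13. For Cxcr1 (36 to 53 counts in control and at most 1 in any treated library) and Cxcr2 the filter was passed through control alone, so their calls follow from the filter and the 5 calls are no support for a change of the receptors as a group. Cxcr4, the receptor of Cxcl12, had 194 ± 5.46 CPM in control and group means from 24.5 to 35.1 in the treated groups. Cx3cr1, the receptor of Cx3cl1, had 137 ± 8.53 CPM in control, 5.37 ± 1.08 in IL-4, 0.612 ± 0.279 in IL-4+IL-6, 39.1 ± 2.22 in IL-13 and 5.83 ± 0.973 in IL-6+IL-13. It fell by 3.11 ± 0.250 on addition of IL-6 to IL-4 (adjusted p = 1.97e-08) and by 2.75 ± 0.140 on its addition to IL-13 (9.90e-11), so that ligand and receptor both had their lowest group mean in IL-4+IL-6. Cxcr4 rose by 0.50 ± 0.067 beside IL-4 (adjusted p = 1.03e-05) and had a log2 fold change of -0.07 ± 0.066 beside IL-13 (adjusted p = 0.507). Cxcr2, the receptor of Cxcl1, Cxcl2 and Cxcl3, had 86 to 118 counts in control, where granulocyte markers were high, and 5 or fewer in every treated library, too few to compare the treated groups. Cxcr6, the receptor of Cxcl16, had at most 15 counts in any library.

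**Figure D5:**
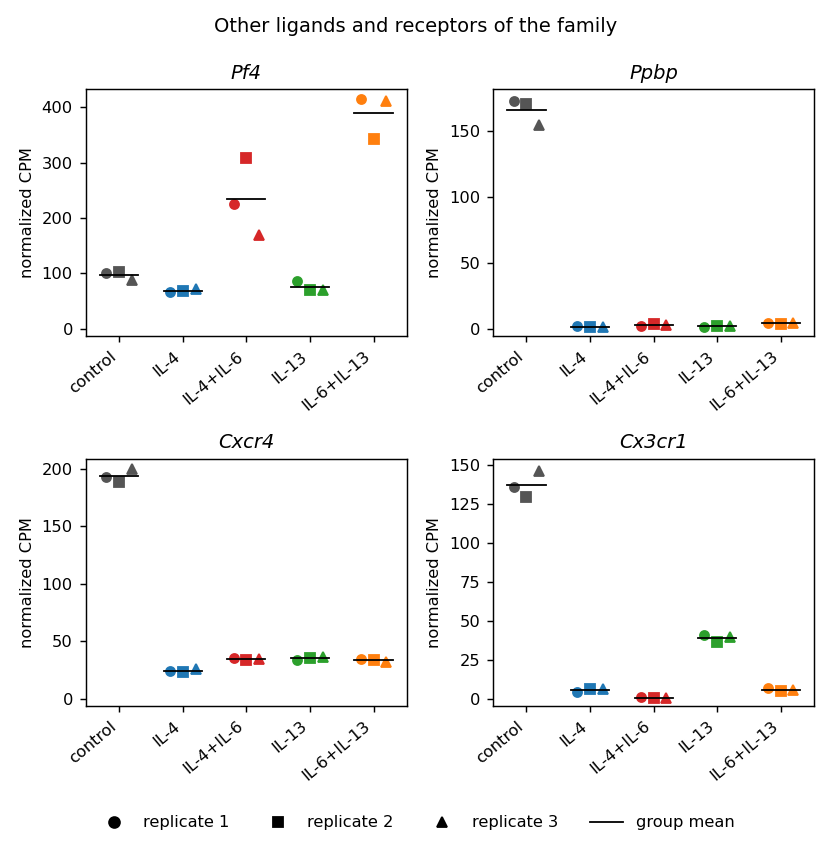
Normalized CPM (linear axes from 0) of 2 further ligands (Pf4 and Ppbp) and 2 receptors (Cxcr4 and Cx3cr1) by library and group, with symbols for the replicate number and lines for group means. Pf4 was highest in IL-6+IL-13 (343 to 415), while the other 3 genes were highest in control.

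Among 7 proteases and regulators that act on these chemokines, 0 rose and 4 fell on addition of IL-6 to IL-4, where 20.7% and 18.7% of all genes were called higher and lower, and 0 rose and 2 fell on its addition to IL-13, where the shares were 12.1% and 13.5%. Of these genes, Dpp4 and Timp3 passed the filter through control alone. They had at most 4 and 5 counts in any treated library, too few to compare the treated groups. Mmp12, macrophage elastase, which cleaves ELR chemokines, fell by 2.07 ± 0.087 beside IL-4 (adjusted p = 4.67e-12) and by 1.72 ± 0.086 beside IL-13 (8.08e-11). Adam10, a protease that releases Cxcl16 and Cx3cl1, fell by 0.50 ± 0.078 beside IL-4 (adjusted p = 6.00e-05), and Mmp9, a gelatinase, by 0.75 ± 0.116 (5.13e-05). Adam17 was lower by 0.38 ± 0.057 beside IL-13 (adjusted p = 7.19e-05).

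Of 14 NF-kB target genes and inhibitors, 6 rose and 4 fell on addition of IL-6 to IL-4, beside 20.7% and 18.7% of all genes, and 6 rose and 3 fell on its addition to IL-13, beside 12.1% and 13.5%. Bcl3, a regulator of NF-kB, rose by 1.90 ± 0.156 and 1.77 ± 0.149 on the log2 scale, and Icam1, an adhesion molecule, by 1.71 ± 0.101 and 1.21 ± 0.095. Tnf, the gene of tumour necrosis factor, fell by 0.66 ± 0.165 and 0.48 ± 0.149, and the inhibitor Nfkbie by 0.96 ± 0.115 and 0.37 ± 0.104. Ptgs2, the inducible cyclooxygenase, rose by 1.93 ± 0.338 beside IL-13. The list thus moved in both directions.

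Of 15 interferon-gamma-induced genes, 2 rose and 4 fell on addition of IL-6 to IL-4, beside 20.7% and 18.7% of all genes, and 2 rose and 2 fell on its addition to IL-13, beside 12.1% and 13.5%, so that the counts beside IL-13 are near those of all genes. Gbp7, a guanylate-binding protein, rose by 2.13 ± 0.275 and 1.47 ± 0.269, while Ciita, the master regulator of MHC class II genes, fell by 2.83 ± 0.330 and 2.11 ± 0.414. The summed list was 288 to 348 CPM in IL-4+IL-6 and 315 to 443 in IL-6+IL-13, against 370 to 379 in IL-4 and 354 to 384 in IL-13.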

How the data were processed

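RNA of 15 BMDM libraries (5 groups of 3) was measured by RNA sequencing. The deposited files are a count matrix of unnormalized whole numbers and lists of FPKM values per library, which the authors had derived from these counts by gene length and library total. On 175998 values of 20 counts or more, the gene lengths implied by the deposited FPKM and counts differed between libraries by a relative 2.65e-08 at most. The submitters' processing notes name CASAVA, Bowtie2 2.2.3, HISAT2 2.1.0, TopHat2, DESeq2 and the build GRCm38, without their roles, and the counting tool is not given in the sources used here. Symbols were found for 53274 of 53465 identifiers.

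The deposited counts were tested in R 4.3.3 by edgeR 4.0.16 (filterByExpr with a minimum count of 10, TMM factors, glmQLFit and glmQLFTest, no covariate) over all 15 libraries, with 9 contrasts and Benjamini-Hochberg adjustment over all tested genes. The script was tested on simulated data. DESeq2 1.42.0, other scalings and filters, a replicate block and the loss of each library were tried as alternatives. All 15 libraries were used. Within groups, replicates differed by more than counting noise, most for IL-4+IL-6 replicate 2 and IL-13 replicate 1. Symbols of the pathway and marker lists (7 other ligands, 9 receptors, 7 proteases and regulators, 14 NF-kB genes, 15 interferon-gamma genes, 4 cytokine checks, 9 marker lists) were written by hand. Genes were named by this rule: all members, up to 3 called genes each way with the largest change in each pathway list for each IL-6 comparison, the 3 genes most correlated with each member of mean CPM of at least 1, and the markers and cytokine checks. Some genes the rule names are not reported here, and Cxcl5, Cxcl11, Cxcr6 and the overlapping genes were added for their level. Members and lists were chosen with earlier results of these data known. Intervals of ratios are exact (Clopper-Pearson on summed counts). Sequences came from GENCODE M21 and RefSeq (GRCm38.p6).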

Additional observations from a re-analysis of the deposited data

Results flagged for a closer look

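The difference between the effect of IL-6 beside IL-4 and its effect beside IL-13 was -0.75 ± 0.215 on the log2 scale for Cxcl16 (edgeR's quasi-likelihood test, Benjamini-Hochberg adjusted p = 0.0402), the only member in which a test of this difference passed the threshold. All 3 libraries of IL-4+IL-6 lay below all 3 of IL-4, while 2 of the 3 libraries of IL-6+IL-13 lay above all 3 of IL-13. Over the alternatives the adjusted p reached 0.102, and the direction was negative in all of them.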

How the results depend on the processing

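Calls of members that passed the test in the comparisons over control kept their direction in all alternatives. The number of members called moved most, relative to the main count, as follows. In IL-4+IL-6 against IL-6+IL-13 (main 1) it was 2 with upper-quartile factors, 3 with DESeq2, 5 with no filter on low counts and 2 with a minimum count of 30, and it was between 1 and 3 when each library was left out. In IL-6+IL-13 against control (main 3) it was 5 with no filter and between 2 and 4 when libraries were left out, and against IL-13 (main 1) it was 3 with no filter and between 1 and 3 when libraries were left out. In IL-4 against IL-13 (main 2) it was between 1 and 2 when libraries were left out. For the difference between the effects of IL-6 (main 1) it was 0 with the replicate block, 0 in the fit of only the groups compared, which for this contrast is the same fit as that without the control libraries, and between 0 and 1 when libraries were left out. Single calls also changed, as given above, for Cxcl16 in IL-4+IL-6 against IL-4, Cxcl10 in IL-4+IL-6 against control and Cxcl3 in IL-4 against control. The cause of these moves was not tested.

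The labels do not say whether replicate numbers pair the samples. Deviations of same-numbered samples had correlations between -0.28 and 0.16, with 3 of 30 above 0.1, which shows no pairing but cannot exclude it. The libraries that stood apart, IL-4+IL-6 replicate 2 and IL-13 replicate 1, had a correlation of 0.39. With the replicate block the call of Cxcl16 for the difference between the effects of IL-6 (log2 -0.75) had an adjusted p of 0.0532, and that of Cx3cl1 in IL-6+IL-13 against control (log2 -1.56) 0.0592. The block changed no other call of a member.

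Values that changed sign were uncalled. Cxcl2 in IL-13 against control was 0.061 with no filter, 0.0024 with a minimum count of 30 and 0.025 in the fit of only the groups compared, and -0.31 to 0.38 when libraries were left out. Cxcl10 in IL-4+IL-6 against control was 0.044 with no filter and -1.84 to 0.48 when libraries were left out. Leaving out libraries also gave log2 fold changes of -0.56 to 0.17 for Cxcl10 and -0.60 to 0.24 for Cx3cl1 in IL-13 against control, -0.20 to 0.64 for Cxcl3 in IL-6+IL-13 against control, -1.19 to 0.47 for Cxcl2 and -1.21 to 1.57 for Cxcl10 in IL-4+IL-6 against IL-4, and -2.14 to 0.58 for Cxcl3 and -0.63 to 0.10 for Cx3cl1 in IL-4 against IL-13. For the difference between the effects of IL-6 they were -0.46 to 1.21 for Cxcl2, -1.36 to 1.35 for Cxcl3, -2.65 to 0.13 for Cxcl10 and -0.24 to 0.10 for Cxcl14.

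Of all genes, 4368 were called in IL-4+IL-6 against IL-6+IL-13 and 2900 in the fit of only these groups, and 1779 in IL-4 against IL-13 and between 1088 and 2915 when libraries were left out. Depth limits Cxcl1, Cxcl3, Cxcl9, Cxcl12, Cxcl13 and Cx3cl1, where differences of a few counts are not detectable.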
